A study of Mus musculus with 13 samples.

Results

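SMAD2/3 binding sites of activin-treated gonadotrope cells were set against the chromatin that carried acetylated histone H3 lysine 27 (H3K27ac) in the same treatment. Peaks of the 2 activin libraries of an antibody were merged where they shared at least 1 bp, and a merged region was a member when both libraries contributed a peak. There were 5162 such SMAD2/3 regions and 30492 acetylated regions. Of the acetylated regions, 3514 shared at least 1 bp with a SMAD2/3 region and 26978 did not. The 4 libraries used for this choice belong to a series of 13 samples.

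The cells were LβT2-FLAG-mFoxL2, a mouse gonadotrope line with a lentiviral cassette that expresses GFP constitutively and FLAG-tagged FOXL2 on addition of doxycycline. All groups, the vehicle controls included, carried this cassette and received doxycycline for 48 h, so every value belongs to cells with added FOXL2. They then spent 2 h in medium with 2% serum and 1 h with 1 nM activin A or with vehicle before fixation in 1% formaldehyde. Each sample pooled 3 plates, and the duplicates are not stated to be separate cultures in any further way. The activin groups used were SMAD2/3 immunoprecipitation (2 libraries), H3K27ac (2) and FLAG, here called FOXL2 (2). The vehicle group used was H3K27ac (2).

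SMAD2 and SMAD3 are the transcription factors that activin receptors phosphorylate. They then enter the nucleus with SMAD4 and bind DNA beside other factors. H3K27ac is a mark of active promoters and enhancers and often flanks the site where a factor sits. Gonadotropes are the pituitary cells that make luteinizing hormone and follicle-stimulating hormone, and activin is the main inducer of the β subunit gene of the latter, Fshb.

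The activin SMAD2/3 lists held 7784 and 5970 peaks with median widths of 238 and 233 bp, and the activin H3K27ac lists held 41763 and 38995 peaks with median widths of 699 and 633 bp. Reads per library are unknown, so a longer list can also come from more reads. The strongest SMAD2/3 summits of the 2 libraries lay a median of 22.5 bp apart, and 95.4% of the 5162 regions had them within 100 bp. As a check of the cell type, an acetylated region of any class was nearest to 5 of 7 gonadotrope marker genes (Lhb, Cga, Gnrhr, Nr5a1 and Pitx1, not Fshb or Lhx3) and to 5 of 13 markers of other pituitary cells (Ghrhr, Drd2, Pomc, Crhr1 and S100b). A region classed as promoter was nearest to 2 of these 5 gonadotrope genes (Lhb and Nr5a1), to 1 of the 5 others (S100b) and to 6589 of 14634 genes with an acetylated region (45.03%).

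Few SMAD2/3 summits lay at promoters, and 36 RefSeq promoter windows (250 bases before to 50 after a gene start, GRCm38.p6) held one, of 32851 windows in all. The next sequences show the acetylated windows among them that contain GTCTAGAC, the palindrome made of a pair of SMAD-binding boxes. Lhb, which encodes the β subunit of luteinizing hormone, and Luc7l2, which encodes a splicing factor and had the highest SMAD2/3 rank among protein-coding genes with such a window, are shown beside them. Each is written 5′ to 3′ on the gene's strand, with GTCTAGAC and the single box CAGAC (or its complement GTCTG) in capitals.

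Gm41452, chr16:37845936-37846033, minus strand: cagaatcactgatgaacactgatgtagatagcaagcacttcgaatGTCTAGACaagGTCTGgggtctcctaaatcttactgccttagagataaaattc

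Smad6, chr9:64022050-64022108, minus strand: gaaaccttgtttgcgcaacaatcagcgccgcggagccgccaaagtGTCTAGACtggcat

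Tnni3, chr7:4522586-4522718, minus strand: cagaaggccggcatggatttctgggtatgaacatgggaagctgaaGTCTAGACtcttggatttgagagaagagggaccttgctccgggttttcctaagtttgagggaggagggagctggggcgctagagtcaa

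Lhb, chr7:45420835-45420925, plus strand: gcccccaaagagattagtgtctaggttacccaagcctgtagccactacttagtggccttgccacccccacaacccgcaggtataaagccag

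Luc7l2, chr6:38555517-38555607, plus strand: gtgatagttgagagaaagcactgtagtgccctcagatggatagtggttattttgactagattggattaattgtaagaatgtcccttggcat

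In the Gm41452 window the centre of GTCTAGAC lay 1.5 bp from the SMAD2/3 summit. In Smad6, which encodes an inhibitory SMAD, it lay 30.5 bp from the summit, and in Tnni3, the gene of cardiac troponin I, 38.5 bp. The printed stretches of Lhb and Luc7l2 held neither element. Both strands were searched. GTCTAGAC occurred in 3 of the 36 windows with a summit (8.33%), in 0.213% of all windows and in 0.254% of the 8674 acetylated windows without a summit. CAGAC occurred in 58.3% of the 36 windows (42.2 to 72.9%) and in 49.6% of all windows, which lies within that interval. The forkhead core GTAAACA occurred in 13.9% (6.08 to 28.7%) and in 3.65%. These matches are letters in a window and not measured binding sites, and 3 and 5 windows are few. The 36 windows held summits of 32 SMAD2/3 regions, so they are not all separate sites.

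Most SMAD2/3 regions overlapped an acetylated region by at least 1 bp, while most acetylated regions had no SMAD2/3. The SMAD2/3 summit itself lay inside an acetylated region in 63.6% of SMAD2/3 regions, and in 58.0% and 51.8% in single libraries of replicates 1 and 2. Of the 5162 SMAD2/3 regions, 3879 (75.1%) overlapped an acetylated region, with a 95% Wilson interval of 73.9 to 76.3%. In single libraries of the same number the share was 67.7% for replicate 1 and 62.8% for replicate 2 (mean 65.2%). The overlap covered 11.5% of the acetylated regions (11.2 to 11.9%), and 10.9% and 8.56% in the single libraries. Intervals of shares here cover counting error only, since neighbouring regions are not independent.

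The strength of a SMAD2/3 region moved with its acetylation. Strength is the percentile rank by −log10 q within a library's list, with 100 for the strongest peak, averaged over both libraries. In 4 classes of equal size from the weakest to the strongest SMAD2/3 regions, 62.1%, 68.6%, 78.4% and 91.5% overlapped acetylation. A wider SMAD2/3 region meets the 1-bp overlap more easily. By the summit alone the shares inside acetylation rose less, with 55.2%, 59.0%, 64.7% and 75.7%. Across the 3285 SMAD2/3 summits inside acetylated regions, Spearman's rho between SMAD2/3 rank and acetylation rank was 0.23, and between SMAD2/3 rank and acetylated width 0.20. These points share the same libraries and the same regions, and the values are descriptions.

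Acetylated regions with SMAD2/3 were wider than those without. In replicate 1 the median widths were 2609 and 611 bp, and in replicate 2 they were 2446 and 574 bp, ratios of 4.27 and 4.26. In both libraries the regions with SMAD2/3 were therefore more than 4 times as wide. For regions found in both replicates the medians were 2839.5 bp with SMAD2/3 (quartiles 1649 and 4594 bp) and 1048 bp without (592 and 1793 bp), a ratio of 2.71. Without the first H3K27ac library the ratio was 4.02 and without the second 4.27. Across the 20 chromosomes with such regions the ratio ran from 2.39 to 3.15. The mean of the single-library medians was 2528 ± 115 bp with SMAD2/3 and 592.5 ± 26.2 bp without (SD, n = 2). The exact permutation test of 2 against 2 values cannot give a two-sided p below 0.333. That was its p here and for promoter share, distance and rank, so it places none of them past 0.05. The test ignores that the values with and without SMAD2/3 come from the same libraries. For 2 pairs the smallest exact permutation p is 0.5, so a paired test could not decide either.

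A wide region has more bases in which a SMAD2/3 region can fall, so the share was also read by width and per kb. Width classes here exclude their lower and include their upper bound. Of acetylated regions up to 500 bp wide 1.77% held SMAD2/3, of those of 500 to 1000 bp 4.23%, and of those of 1000 to 2000 bp 7.48%. The share was 22.5% at 2000 to 4000 bp, 45.5% at 4000 to 8000 bp and 63.9% above 8000 bp. Per kb of acetylated DNA the number of SMAD2/3 summits was 0.00902 at 500 to 1000 bp, 0.0355 at 1000 to 2000 bp and 0.0840 at 2000 to 4000 bp. It was 0.106 at 4000 to 8000 bp and 0.0926 above 8000 bp. In replicates 1 and 2 alone it was 0.0165 and 0.0158 at 500 to 1000 bp, 0.0659 and 0.0503 at 1000 to 2000 bp, 0.146 and 0.130 at 4000 to 8000 bp, and 0.124 and 0.110 above 8000 bp. The densities of single libraries were thus higher, with the same order of these classes. For regions of both replicates the density up to 500 bp was 0.00107, from 2 summits, and it was higher from class to class up to 8000 bp. In absolute terms the largest step was between the classes of 1000 to 2000 bp and 2000 to 4000 bp.

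**Figure D1:**
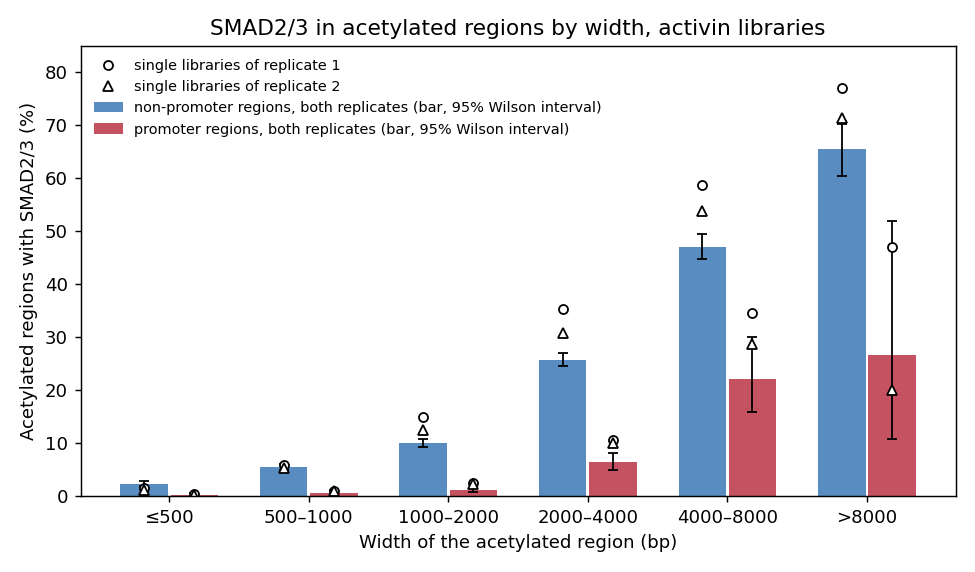
Percent of acetylated regions that overlap a SMAD2/3 region (vertical axis) in 6 classes of acetylated width in bp (horizontal axis). Bars are regions of both replicates with 95% Wilson intervals, circles and triangles the single libraries of replicates 1 and 2, blue for non-promoter and red for promoter regions. Non-promoter bars stand above promoter bars in each class, for example 25.8% against 6.40% at 2000 to 4000 bp, although the promoter class above 8000 bp holds only 15 regions.

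Most acetylated regions with SMAD2/3 held a single SMAD2/3 region. There were 3117 with 1, 336 with 2, 51 with 3, 9 with 4 and 1 with 5, and their median widths were 2610, 5364, 8238, 13574 and 17907 bp. The region with 5 lay near BB365896, 8.49 kb from that gene's start at chr6:58965177-58983083. Those with 4 included a region in intron sequence near Gucy2f, which encodes a retinal guanylate cyclase (chrX:142183734-142198052), and an intergenic region 82.7 kb from H2afy, which encodes the histone variant macroH2A (chr13:56047298-56060878). Regions near Gm23341 (13944 bp) and RP23-42M8.2 (11704 bp) also held 4.

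The widest acetylated regions were found in both sets. With SMAD2/3 they included a 34501-bp region near Gm14666 with 4 SMAD2/3 regions and a 29960-bp region near Gm20407 with 3. Without SMAD2/3 they were a 25656-bp region near Gm33819, a 21363-bp promoter region at Irs4 and a 20876-bp region near Chga. Irs4 encodes an insulin receptor substrate and Chga encodes chromogranin A, a protein of secretory granules. These 5 regions held FOXL2 and were acetylated with vehicle too.

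Promoters were the class of acetylated chromatin with the least SMAD2/3. SMAD2/3 was present in 2.67% of promoter regions in replicate 1 and in 2.04% in replicate 2, against 12.9% and 10.3% of non-promoter regions. For regions of both replicates it was present in 140 of 7202 promoters (1.94%), 6.45% of 1660 exon regions, 13.7% of 13240 intron regions, 11.8% of 1031 regions at transcript ends and 18.1% of 7359 intergenic regions. Promoters made up 3.98% of the acetylated regions with SMAD2/3 and 26.2% of those without, a difference of -22.2 percentage points. In the single libraries the difference was -16.6 and -17.2 points, and on single chromosomes it ran from -28.4 to -13.3. A region has the class of its strongest acetylated peak, so a wide region that covers a promoter can be classed otherwise. Promoter acetylated regions held 132 SMAD2/3 summits, while 156 SMAD2/3 regions themselves classed as promoter had their summit inside an acetylated region.

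The promoter difference was nearly as large at matched width. The difference was taken within 10 width classes of equal size and averaged by the number of all regions in each. It was then -21.2 points. At 1000 to 2000 bp 1.14% of promoters and 9.99% of other regions held SMAD2/3, and at 4000 to 8000 bp 22.1% and 47.1%. Per kb of acetylated DNA there were 0.0146 summits in promoter regions and 0.0751 elsewhere, a ratio of 5.14 (4.04 and 4.11 in the single libraries). From the side of SMAD2/3, promoters had the higher share. Of 203 SMAD2/3 regions classed as promoter 86.2% were acetylated (80.8 to 90.3%), and of the other 4959 regions 74.7%.

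The promoter region with the highest SMAD2/3 rank was that of Pomt1, an O-mannosyltransferase gene (chr2:32244355-32251135), where the authors' fold enrichment of SMAD2/3 was 16.0 and 14.5 in replicates 1 and 2. Zfp251 followed among named protein-coding genes with 20.6 and 20.1. A promoter-class region whose nearest gene is Gdf9, which encodes an oocyte ligand of the TGF-β family, had 12.6 and 10.7. It lay 2.24 kb from the Gdf9 start, against 0.616 kb for Zfp251, so its class may not refer to that start. These promoter regions were chosen after their values were seen. The Lhb promoter region (chr7:45418690-45422140, 3451 bp) had SMAD2/3 folds of 3.14 and 3.96, which are low beside those of Pomt1. Lhb was the only one of 18 listed gonadotrope genes with a promoter region that held SMAD2/3, and the region lacked FOXL2 in at least 1 library.

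Strong acetylation at promoters also occurred with no SMAD2/3 peak in either activin library. The 5 promoter regions of highest acetylation rank in that set had Brd2, Tef, Rnu11, Sertad3 and Ucp2 as nearest genes. The Tef region lay 1.86 kb from that gene's start, so its class may not refer to it. Brd2 encodes a reader of acetylated histones, Tef a bZIP factor of the circadian output, Rnu11 the U11 small nuclear RNA and Ucp2 a mitochondrial uncoupling protein. At Brd2 (5760 bp) the H3K27ac fold was 11.98 and 12.15, and at the 567-bp region of Rnu11 it was 10.0 and 8.35. The non-promoter regions of highest rank included those near Gm15657, Gm37699, Cep164 and Gm14268, with acetylation ranks from 99.87 to 99.96. The first and the third of these lacked a FOXL2 region found in both libraries.

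Outside promoters, SMAD2/3 was found farther from gene starts. The median distance of non-promoter acetylated regions to the nearest start was 21402 bp with SMAD2/3 and 14574 bp without in replicate 1, and 20846 and 14337 bp in replicate 2. For regions of both replicates the medians were 21424 and 12921 bp, a ratio of 1.66 (1.47 and 1.45 in the single libraries). SMAD2/3 was present in 9.01% of regions within 5 kb of a start, 14.6% at 5 to 20 kb, 16.7% at 20 to 50 kb, 19.5% at 50 to 100 kb and 21.2% beyond 100 kb. The order also held per kb of acetylated DNA, from 0.0525 summits within 5 kb to 0.0965 beyond 100 kb.

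Acetylated regions with SMAD2/3 also ranked higher, and the difference was smaller at matched width. The mean acetylation rank was 76.0 with SMAD2/3 and 46.8 without in replicate 1, and 76.7 and 47.5 in replicate 2. For regions of both replicates it was 76.1 and 56.3, a difference of 19.9. With widths matched over 10 classes the difference was 2.70 with promoters included. Among non-promoter regions the mean ranks with and without SMAD2/3 were 50.2 and 41.4 at 500 to 1000 bp, 61.2 and 55.0 at 1000 to 2000 bp, 79.0 and 73.1 at 2000 to 4000 bp and 91.1 and 86.2 at 4000 to 8000 bp. From the weakest to the strongest of 10 classes of equal size by acetylation rank, the share with SMAD2/3 rose from 1.57% to 34.0%, while the median width rose from 561 to 3415 bp. Acetylation rank and width had a Spearman's rho of 0.60 over the 30492 regions.

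The regions with the strongest SMAD2/3 were mostly wide and strongly acetylated. First by SMAD2/3 rank was a 12557-bp region at chr2:107117071-107129627, whose nearest gene is Gm13903 and whose centre lay 63.7 kb upstream of the start of Fshb. Its SMAD2/3 folds were 18.8 and 24.4, and its H3K27ac folds 5.78 and 8.34. The next were intron regions near 2810404F17Rik (folds 21.48 and 27.01), Nek6, a mitotic kinase gene (28.5 and 31.3), Slc30a9, a gene of the zinc transporter family (23.0 and 26.3), and 2610203C20Rik (17.2 and 16.9). Gm9788 and Gm24979 completed the first 8 together with Dpf3. All but the Dpf3 region were at least 3069 bp wide and had an acetylation rank above 91. Dpf3 encodes a subunit of BAF chromatin remodelling complexes, and its region was the exception. It was 767 bp wide with an acetylation rank of 57.3, was not acetylated in both vehicle libraries, and had SMAD2/3 folds of 34.6 and 29.4, with the summit 101 bp outside the acetylated edge.

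Within the acetylated region the SMAD2/3 summit lay near the middle. Of 3285 summits inside an acetylated region, 65.4% were in the middle of 3 equal segments of its length (63.7 to 67.0%), 17.3% in the first and 17.4% in the last, where an even spread would put 33.3% in each. In the single libraries the middle segment held 63.1% of 4514 summits and 63.8% of 3093. With the length cut into 10 equal segments, the central 2 held 22.8% and 22.0%, and the outermost 1.00% and 1.10%. The 2 ends were alike, and each of the 20 chromosomes had more than the even share in the middle segment, from 58.7 to 73.4%.

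**Figure D2:**
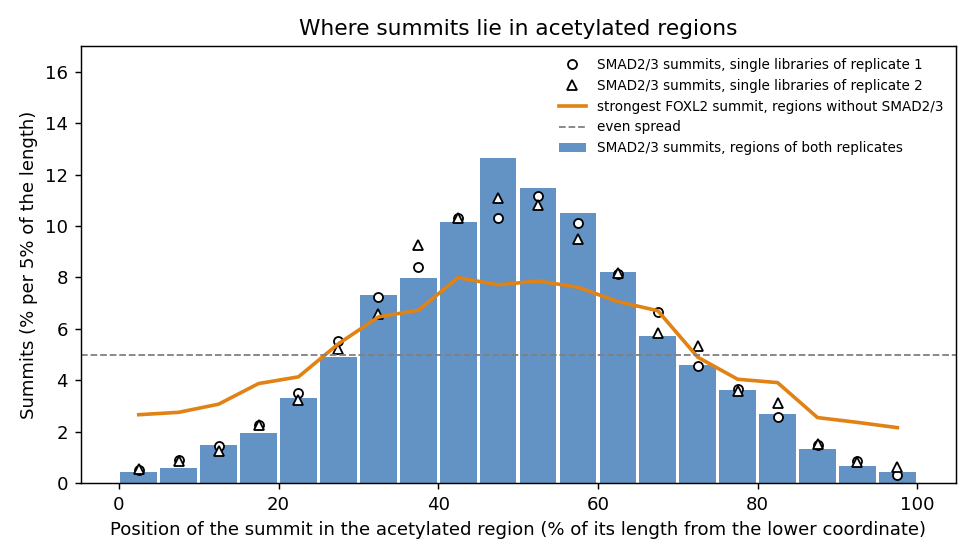
Percent of summits (vertical axis) in each 5% of the acetylated region's length (horizontal axis, percent of length). Blue bars are SMAD2/3 summits in regions of both replicates, circles and triangles the single libraries of replicates 1 and 2, the orange line the strongest FOXL2 summit in regions without SMAD2/3, and the dashed line the even share of 5%. The SMAD2/3 values of both libraries peak in the middle and fall below 1.00% at the outermost 5% of each end, with FOXL2 flatter.

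The central position was clearest in regions of 1000 to 4000 bp. At 1000 to 2000 bp 78.0% of 472 summits were in the middle segment, a median of 138 bp from the centre, and at 2000 to 4000 bp 75.3% of 1282, a median of 259 bp from it. At 4000 to 8000 bp it was 58.7% of 1086, and above 8000 bp 40.7% of 388 (35.9 to 45.7%). At 500 to 1000 bp it was 32.7% of 55 (21.8 to 45.9%), which does not differ from an even spread at this number. In the single libraries that class gave 53.8% of 119 and 50.9% of 108, so its value depended on which regions were kept. Where a summit was the only one of its region, 71.4% of 2479 were in the middle segment. In 4 classes of equal size by SMAD2/3 rank the share was 61.4% in the weakest and 70.4% in the strongest, and it was 56.1% in the 132 promoter cases.

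FOXL2 summits were less central in regions without SMAD2/3. The strongest FOXL2 summit was in the middle segment in 50.1% of 5368 acetylated regions without SMAD2/3 (48.8 to 51.4%). In 2396 regions that held summits of both factors it was in the middle segment in 62.0% (60.1 to 63.9%), and the strongest SMAD2/3 summit of the same regions in 69.0% (67.2 to 70.9%). The intervals of the FOXL2 shares without and with SMAD2/3 do not overlap, but they cover counting error only. The shares of 62.0% and 69.0% come from the same regions, so their intervals do not test the difference between the factors. Positions of FOXL2 summits in single libraries were not computed. At 1000 to 2000 bp the FOXL2 shares were 54.7% without and 73.2% with SMAD2/3, and above 8000 bp 38.3% and 41.0%, with overlapping intervals.

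**Figure D3:**
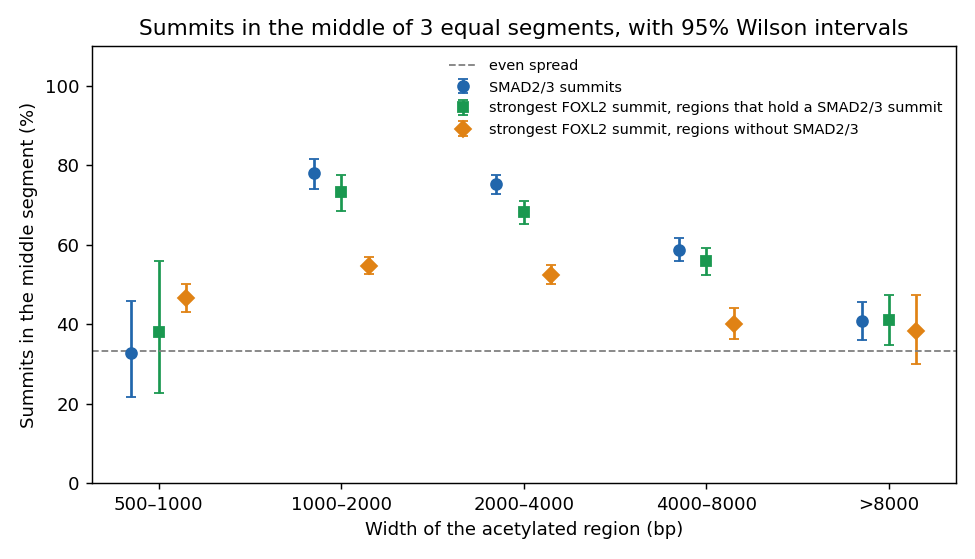
Percent of summits in the middle segment of the acetylated region (vertical axis) in 5 classes of acetylated width in bp (horizontal axis), with 95% Wilson intervals. Blue circles are SMAD2/3, green squares the strongest FOXL2 summit of regions that hold a SMAD2/3 summit, orange diamonds that of regions without SMAD2/3, and the dashed line is the even share of 33.3%. From 1000 to 8000 bp the orange points lie below the others, while above 8000 bp the 3 intervals overlap.

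The SMAD2/3 summits outside acetylated regions fell into near and far ones. Of all 5162 summits 3285 (63.6%) lay inside. A further 567 (10.98%) lay between a pair of acetylated regions with an edge within 500 bp on each side, and 482 (9.34%) within 500 bp of 1 region. Of the 567, 400 belonged to SMAD2/3 regions that overlapped acetylation by at least 1 bp, and of the 482, 194 did. These are counted in the 75.1% above. The remaining 828 (16.0%) were a median of 27615 bp from acetylated chromatin. The median SMAD2/3 rank was 63.5 inside, 67.9 between, 52.1 beside and 42.4 far away, and the share with FOXL2 was 78.9%, 83.6%, 85.3% and 89.7% in the same order. The summits in gaps thus ranked no lower than those inside, and the far ones were weaker and had FOXL2 more often.

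Gaps of 200 to 600 bp held SMAD2/3 more often than longer ones. Gaps of 300 to 400 bp were the most numerous with or without it, 2418 of the 5815 gaps up to 1000 bp, and among gaps of 200 to 600 bp the median length was 348 bp with and 369 bp without a SMAD2/3 summit. For the 567 summits the median gap was 349 bp (quartiles 314.5 and 410 bp), 61.6% of the summits were in the gap's middle segment, and none lay in an H3K27ac peak of either activin library. The last value is nearly set by the choice, since a peak that meets a flanking region is part of that region. Of all gaps up to 1000 bp between neighbouring acetylated regions, 575 of 5815 (9.89%) held a SMAD2/3 summit. The share was 1.14% of the 88 gaps up to 200 bp. It was 13.7% of gaps of 200 to 300 bp, 13.6% at 300 to 400 bp, 9.04% at 400 to 600 bp and 1.54% at 600 to 1000 bp. Longer gaps gave 1.18% at 1000 to 2000 bp and 1.61% at 2000 to 5000 bp, although they hold more bases. In the single libraries 14.0% and 11.7% of gaps of 200 to 600 bp held a summit of the same-numbered SMAD2/3 library, and 3.78% and 4.74% of gaps of 600 to 1000 bp. The gaps of 200 to 600 bp were the higher ones in both libraries. How far the peak caller's joining of nearby signal sets the sizes of gaps was not tested.

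**Figure D4:**
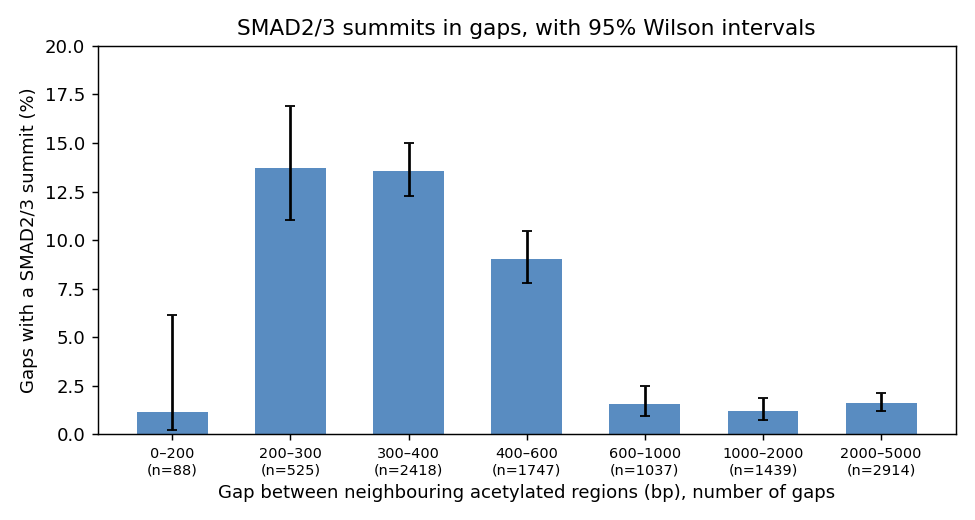
Percent of gaps between neighbouring acetylated regions that hold a SMAD2/3 summit (vertical axis) by gap length in bp, with the number of gaps (horizontal axis). Bars are regions of both replicates with 95% Wilson intervals. Gaps of 200 to 600 bp stand between 9.04 and 13.7%, the 88 shorter ones at 1.14%, and gaps over 600 bp stay at or below 1.61%.

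The chromatin beside these gaps differed in the vehicle libraries. Of the 1147 acetylated regions that flank a gap with a SMAD2/3 summit, 60.2% and 58.1% had a peak in vehicle H3K27ac replicates 1 and 2, and of the 9745 that flank only gaps without one 89.1% and 87.2%. Counted in both vehicle libraries the shares were 54.0% and 85.4%. The sets differ in promoters, 3.92% against 28.2%. Among non-promoter regions alone the shares were 53.8% of 1102 and 81.8% of 6996, so the difference stood without promoters. At the midpoint of gaps of 200 to 600 bp, vehicle acetylation was present in 15.6% of 558 gaps with a SMAD2/3 summit (12.8 to 18.8%) and in 26.2% of 4132 without (24.8 to 27.5%).

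SMAD2/3 regions with no acetylated peak in either activin library numbered 1166 (22.6%). The 5 strongest had Gm37332, Pln, Kcnh7, 4930503O07Rik and Spata19 as nearest genes, and all 5 had FOXL2. Their distances to the starts of these genes were 14.8, -158, 100, 114 and 247 kb in the same order, with minus for upstream. Those near Pln, the phospholamban gene (folds 22.6 and 21.0), Gm37332 and Spata19 were 0.242, 0.189 and 0.301 kb from an acetylated region. Those near the potassium channel gene Kcnh7 (folds 10.6 and 13.3) and near 4930503O07Rik (20.5 and 17.3) were 86.6 and 195 kb away. The same near and far pattern was thus present among the strongest.

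FOXL2 and vehicle acetylation were not used to choose the regions. FOXL2 in both activin libraries was found in 34.9% of all acetylated regions, in 85.2% of those with SMAD2/3 (84.0 to 86.3%) and in 28.3% of those without (27.8 to 28.8%). In non-promoter regions the 2 FOXL2 libraries taken alone gave 86.8% and 87.8% with SMAD2/3, and 35.3% and 37.4% without. Among all acetylated regions, promoters included, the share in both FOXL2 libraries was at least 80.7% in each width class with SMAD2/3. Without SMAD2/3 it went from 19.2% up to 500 bp to 84.6% above 8000 bp. Read the other way, SMAD2/3 was present in 28.2% of acetylated regions with FOXL2 and in 2.62% of those without.

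Acetylation was present with vehicle in 83.7% of all acetylated regions, in 80.9% of those with SMAD2/3 and in 84.0% of those without. Within width classes the 2 sets stood farther apart. Among non-promoter regions of 500 to 1000 bp, vehicle replicates 1 and 2 had a peak in 45.6% and 42.6% of the 340 with SMAD2/3, and in 78.1% and 75.8% of the 5874 without. At 1000 to 2000 bp it was 70.4% and 67.4% against 91.0% and 90.1%. Only 51 SMAD2/3 summits lay inside the 340 regions, and 445 inside the 663 of 1000 to 2000 bp with SMAD2/3. Most of the 340 thus overlapped a SMAD2/3 region whose summit lay outside them. How many of them flank the gaps described above was not counted. The mean activin acetylation rank at 500 to 1000 bp was 50.2 with and 41.4 without SMAD2/3 among these non-promoter regions, and the part of rank in the vehicle shares was not tested. Above 4000 bp nearly every region of either set was acetylated with vehicle, at least 99.2% in both vehicle libraries. Up to 2000 bp the regions with SMAD2/3 were less often acetylated with vehicle in both libraries.

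**Figure D5:**
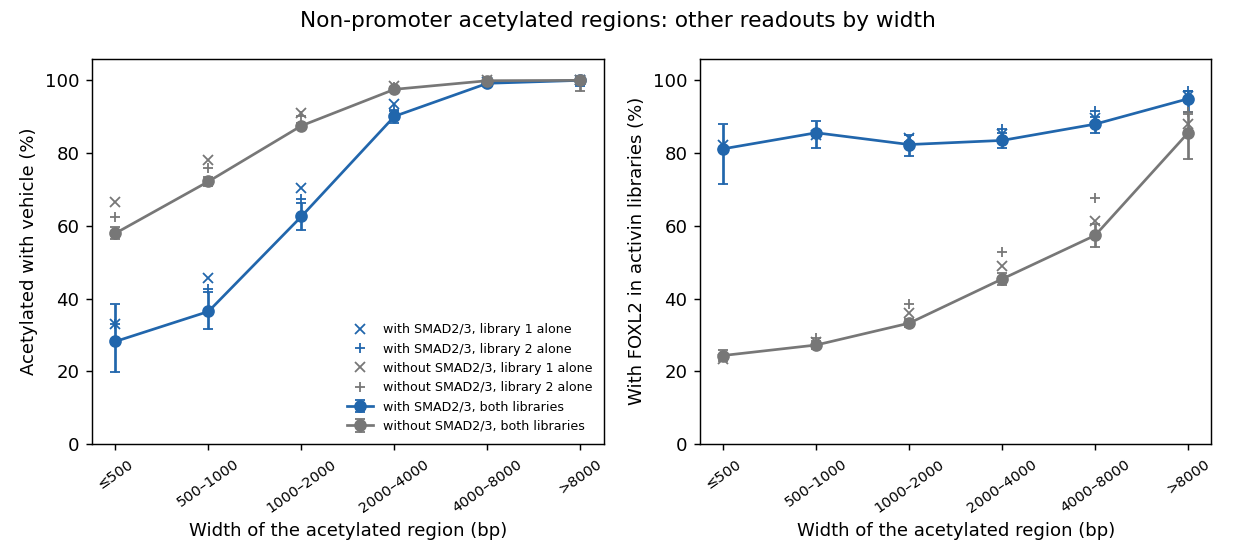
Percent of non-promoter acetylated regions that were acetylated with vehicle (left) and that held FOXL2 in the activin libraries (right), in 6 classes of acetylated width in bp. Blue is with and grey without SMAD2/3, lines with 95% Wilson intervals need both libraries, and crosses are single libraries. On the left blue lies below grey up to 4000 bp (28.2% against 58.0% up to 500 bp), and on the right blue lies above grey in each class. Only 2 SMAD2/3 summits lay inside the 85 regions up to 500 bp with SMAD2/3.

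By nearest gene, 2623 of 14634 genes with an acetylated region (17.9%) had at least 1 with SMAD2/3. The share followed the number of acetylated regions. It was 6.13% of genes with 1 region, 17.9% with 2, 33.4% with 3 or 4, 59.4% with 5 to 8 and 89.6% with 9 or more. The genes with the most were Agbl1 (8 of its 16 acetylated regions), Gm29536 (7 of 17), 1700123O21Rik (7 of 20), Lonrf1 (7 of 9) and Gm20712 (6 of 12). Lonrf1, a RING finger gene, had SMAD2/3 in most of its acetylated regions.

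Of 18 gonadotrope genes 13 had an acetylated region and 7 had one with SMAD2/3, 53.8% (Wilson interval 29.1 to 76.8%) against 17.9% of all genes. By region it was 11 of 35, 31.4% against 11.5% of all acetylated regions. The 13 genes had 2.69 acetylated regions each, and all genes with one had 2.08. Cga encodes the subunit that both gonadotropins share, and both its acetylated regions held 2 SMAD2/3 regions. The region 4.55 kb upstream (chr4:34883072-34891862, 8791 bp) had SMAD2/3 folds of 6.37 and 5.88, and the region in intron sequence (chr4:34892164-34905208, 13045 bp) 13.7 and 11.2. In the latter the strongest summit lay 9.51% along the region, near its edge. Gnrhr, which encodes the receptor of gonadotropin-releasing hormone, had 2 SMAD2/3 regions in its single acetylated region (chr5:86191548-86200332, folds of the strongest 10.6 and 9.46).

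Inhbb, the activin βB subunit gene, had SMAD2/3 in 2 of 7 acetylated regions. In the one 24.2 kb from its start (chr1:119395571-119400573, folds 17.6 and 11.4) the summit lay 50.5% along the region, almost exactly in the middle. Pitx1, a homeobox factor of the early pituitary, had SMAD2/3 in 3 of 5. In its 1424-bp region (chr13:55930069-55931492, folds 11.1 and 7.70) the summit was 48.8% along. Nr5a1 and Isl1, transcription factor genes of the gonadotrope lineage, had it in regions of 8765 and 24595 bp, off the centre at 34.6% and 29.5% for the strongest summit. Egr1 had 4 acetylated regions and Foxl2 2, none with SMAD2/3.

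At the Fshb locus no acetylated region had Fshb as its nearest gene. Within 100 kb of its start there were 7 acetylated regions, 2 of them with SMAD2/3. The 12557-bp region held 3 summits, 14.9%, 22.4% and 80.1% along it, so none was in its middle segment. The 5512-bp region centred 90.4 kb upstream (chr2:107147324-107152835) held 1, 48.3% along it. These 2 had acetylation ranks of 96.6 and 89.5, FOXL2 and vehicle acetylation. The other 5, ranked 16.6 to 75.5, lacked a FOXL2 region found in both libraries, and 1 of them was acetylated in both vehicle libraries.

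Among 17 genes of receptors and SMADs 10 had an acetylated region and 5 had one with SMAD2/3, 50.0% (Wilson interval 23.7 to 76.3%) against 17.9% of all genes. They were Tgfbr3, the betaglycan gene, the BMP receptor genes Bmpr1a and Bmpr1b, and the genes of Smad2 and Smad3 themselves. Bmpr1b had 3 such regions, and in the one at chr3:142039776-142041204 (1429 bp, folds 9.47 and 8.34) the summit lay 12 bp from the centre and acetylation was not present in both vehicle libraries. The region in Smad3 (chr9:63660852-63667519) had lower folds of 4.68 and 4.47. Acvr1b and Acvr2b, activin receptor genes, had 3 acetylated regions each and none with SMAD2/3.

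The other lists are given beside the same 17.9%. Of 16 feedback inhibitors 11 had an acetylated region and 2, Smad6 and Ldlrad4, had one with SMAD2/3 (18.2%). At Smad6 (chr9:64016736-64022988, classed at a transcript end in the deposited annotation) the folds were 8.06 and 9.58 and the summit lay 84.7% along the region. Of 23 classic TGF-β and activin targets 11 had an acetylated region and 1 of them, Fos, had one with SMAD2/3 (9.09%), 12.7 kb upstream (chr12:85461646-85464122, folds 11.7 and 10.1), where acetylation was not present in both vehicle libraries. Junb and Id1 had 3 and 2 acetylated regions without it. Of 13 genes of other pituitary lineages 5 were acetylated, and 1 of these (20.0%), Ghrhr, had SMAD2/3 in 2 of its 4 regions, with folds of 23.7 and 22.2 at chr6:55386414-55391637. Of 27 housekeeping genes 22 were acetylated, and 2, Hsp90ab1 and Rps14, had a region with SMAD2/3 (9.09%). Nearest genes are assigned by position, so they do not say which gene a region acts on, and the lists are too short to set one above another.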

How the data were processed

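Each of 12 libraries has a deposited peak list and a HOMER annotatePeaks table. Bowtie2, MACS2 and HOMER and the builds mm10 and GRCm38 are named in the submitters' processing notes. Peaks were called per library, per the file headers and peak names, and how the control was used is not given in the sources used here. The Protein-A control was not analysed here. The deposited fold enrichment is the authors' linear ratio per peak, and the deposited −log10 q and score are the authors' peak values, used only within their own list. SMAD2/3 and FOXL2 lists have summits, H3K27ac lists are broad without summits. Per the labels, libraries were read from one end over 50 bp. The number of reads obtained is unknown.

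Regions needed a peak in both libraries (overlap of at least 1 bp). A region took the class, nearest gene and distance of its strongest peak, from the deposited tables. A region said to lie near a gene has it as the nearest gene, at whatever distance. Medians, ratios and classes of distance, and the promoter defined by distance, instead used the smallest absolute distance of its peaks. The width of a merged region is the union of both libraries' peaks. The summit is the one with the highest −log10 q. Width-matched values are standardised over width deciles. Same-numbered libraries were paired because their library names share a letter in the labels. Intervals are Wilson intervals at 95%.

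Named regions follow fixed rules: the 8 strongest by SMAD2/3 rank, the 5 with most SMAD2/3 regions, the 5 strongest promoter and 5 strongest other acetylated regions without SMAD2/3, the 3 widest of each set, the 5 strongest SMAD2/3 regions without acetylation, the 5 genes with most such regions, the genes of 6 lists, and regions within 100 kb of Fshb. Of the regions these rules pick, 2 are not reported here. The members, lists and motifs were chosen with earlier results of these data known. Promoter sequences are from RefSeq (GRCm38.p6). Against RefSeq's genes, 99.99% of 13886 genes lay on the same chromosome, and 6747 starts derived from the deposited distances (48.6%) lay within 100 bp. Scripts ran in Python 3.11.15 with numpy 2.4.6, pandas 2.3.3, scipy 1.17.1 and matplotlib 3.10.9, and were tested on simulated data. Alternatives were a −log10 q of at least 5, 50% of the SMAD2/3 region covered, acetylated regions within 1000 bp joined, pairs of single libraries, leaving out each library, and other definitions of promoter, rank and position.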

Additional observations from a re-analysis of the deposited data

How the results depend on the processing

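The 9 main values were each recomputed under the alternatives that apply to them (89 in all). The differences kept their sign and the ratios stayed on the same side of 1. The other main values are shares, which cannot be negative, so the check of direction could not fail for them. Of the 89 recomputed values, 17 moved by less than the SD of the same-numbered pairs, which is small with 2 pairs, and 72 by more. With a −log10 q of at least 5, 61.1% of SMAD2/3 regions were acetylated and 16.1% of acetylated regions held SMAD2/3. The ratio of widths was then 2.14, the promoter difference -33.7 points, the ratio of distances 2.19, the rank difference 6.17 and the ratio of summits per kb 5.89. With at least 50% of the SMAD2/3 region covered, the values in the order of the first 6 were 63.9%, 9.39%, 3.22, -21.4 points, 1.59 and 23.9. With acetylated regions within 1000 bp joined, 14.2% of acetylated regions held SMAD2/3, and the ratios of widths, distances and summits per kb were 2.27, 1.62 and 4.85. The rank difference was then 17.2 and the middle segment held 62.4%.

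As a replicate block, the mean of the same-numbered pairs gave 65.2% and 9.74% for the overlaps, 4.27 for widths, -16.9 points for promoters, 1.46 for distances, 29.2 for rank, 63.5% for the middle segment and 4.08 for summits per kb. The crossed pairs gave 64.8%, 9.66%, 4.26, -17.0 points, 1.48, 29.3, 63.3% and 4.204 in the same order. The SMAD2/3 and H3K27ac values of same-numbered libraries thus differed little from crossed ones.

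Leaving out each library in turn gave 67.9 to 75.1% and 8.45 to 15.0% for the overlaps, 2.72 to 4.27 for widths and -21.8 to -17.4 points for promoters. It gave 1.47 to 1.68 for distances, 19.1 to 29.9 for rank, 63.9 to 65.1% for the middle segment, 4.21 to 4.996 for summits per kb and 15.8 to 22.4% for genes. The higher width and rank values came without an H3K27ac library.

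A promoter defined as a start within 1000 bp gave -24.6 points and 4.36 for summits per kb. Standardised over width deciles, the promoter difference was -21.2 points, the ratio of geometric mean distances 2.12 and the rank difference 2.70. Rank by fold enrichment gave 19.0, and bases common to both H3K27ac libraries gave 64.8% in the middle segment. The cause of these moves was not tested. Peak lists hold no reads, so a missing peak does not show that a site was empty, and 2 libraries per antibody limit every comparison.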
